A study of Mus musculus with 9 samples.

Results

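Lgr5, Lgr4, Olfm4, Ascl2, Smoc2, Rnf43, Znrf3, Tnfrsf19, Cd44 and Prom1 are genes by which the stem cells at the base of the intestinal crypt are commonly recognised. These 10 genes were taken by symbol from the 50600 genes of the deposited tables, and their mRNA was followed in 9 RNA-sequencing libraries of mouse intestinal organoids and tumoroids. Organoids are epithelial structures grown in Matrigel from normal small intestine, and tumoroids are their counterparts grown from intestinal tumours. The organoids were WT with strain C57BL/6 and were kept for 24 hr in a 50% mixture of conditioned medium (cM) and organoid medium containing EGF, Noggin and R-spondin1. The medium came either from tumoroids (T-cM, 3 libraries) or from WT organoids (WT-cM, 3 libraries). The 3 tumoroid libraries came from Apc1638N/+ mice of strain MIX and were not treated with cM, and each group of 3 stood for 3 mice.

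Several properties of these groups bear on every comparison. The groups follow the sample titles. For the 6 organoid libraries the treatment field names the opposite medium, so each direction given between T-cM and WT-cM turns round if that field is right. Genotype, tissue of origin, mouse age, cM exposure and, by the labels, strain all differed between tumoroids and organoids, and their parts cannot be told apart. On strain the study's methods differ from the labels and give a mixed background for all mice. Apc, the mutated gene, was read at 103 to 171 CPM in organoids and 79.4 to 124 CPM in tumoroids, a level that does not show the state of its alleles. The study's methods took organoids from younger mice than tumoroids and grew tumoroids without R-spondin, whereas the labels list it for all samples. The labels do not name a cell type below epithelium, so in these bulk libraries fewer cells of a type and less RNA per cell cannot be told apart.

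Crypt base columnar stem cells renew the intestinal epithelium and depend on Wnt signals. R-spondins bind the receptors LGR4 and LGR5 and hold back the membrane ligases RNF43 and ZNRF3, which otherwise remove Wnt receptors from the cell surface. APC is part of the complex that marks β-catenin for destruction, and its loss switches on Wnt targets, among which Lgr5, Ascl2, Rnf43, Znrf3, Tnfrsf19 and Cd44 are usually counted.

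The libraries held between 16541635 and 25170966 counts, so that 3 counts were worth between 0.103 and 0.204 CPM (counts per library of equal size, scaled by TMM factors of edgeR). All 10 genes were among the 16208 tested, each with a deposited TPM (a level scaled by transcript length and library size) of at least 1 in at least 1 library. Lgr5 and Tnfrsf19 reached that level in the tumoroids only. On GRCm38 (annotation vM21) they lie at chr10:115450311-115587780 (Lgr5, minus strand) and chr14:60963875-61046490 (Tnfrsf19, minus strand). Rnf43, at chr11:87662722-87735539 on the plus strand, overlaps 2 annotated genes with up to 790 counts in a library, and whether the counting used strand was not given in the sources used here.

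Promoter sequence is shown for 3 of the genes because tumoroids and organoids differed widely in Tnfrsf19 and Ascl2 and little in Lgr4. Of the 10 genes, 7 matched the RefSeq promoter table of GRCm38.p6, with 10 starts between them; Lgr5, Smoc2 and Znrf3 were not among the matches. Each sequence is the 250 bases before the start, 5′ to 3′ on the strand of the gene, with searched letters in capitals. The letters were CTTTGA (the core of the motif of TCF/LEF factors, which carry the Wnt signal), CAGCTG (an E-box of the kind ASCL factors bind) and GGAATG (the core of the TEAD motif), on both strands.
Tnfrsf19, minus strand, chr14:61037988-61038237: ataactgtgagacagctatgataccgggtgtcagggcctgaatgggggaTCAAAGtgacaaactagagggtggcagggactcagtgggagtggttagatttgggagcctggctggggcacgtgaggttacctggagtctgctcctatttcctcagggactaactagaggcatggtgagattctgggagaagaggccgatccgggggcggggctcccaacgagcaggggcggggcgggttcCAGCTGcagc
Ascl2, minus strand, chr7:142969265-142969514: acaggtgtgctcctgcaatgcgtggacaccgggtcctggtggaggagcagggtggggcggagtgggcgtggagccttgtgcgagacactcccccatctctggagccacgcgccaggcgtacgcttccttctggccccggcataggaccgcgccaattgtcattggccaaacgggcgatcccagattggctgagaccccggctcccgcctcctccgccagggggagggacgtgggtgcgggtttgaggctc
Lgr4, plus strand, chr2:109917397-109917646: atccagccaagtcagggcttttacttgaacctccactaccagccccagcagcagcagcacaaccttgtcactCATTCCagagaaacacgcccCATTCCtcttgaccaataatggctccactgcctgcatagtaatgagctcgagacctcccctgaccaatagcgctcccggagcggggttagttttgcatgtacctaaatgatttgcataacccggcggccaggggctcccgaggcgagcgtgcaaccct
The downstream start of Tnfrsf19 held CTTTGA, read from the other strand, 201 bases before the start, and CAGCTG 10 bases before it. Lgr4 held GGAATG on the other strand at 178 and 158 bases before its start. No searched letters stood in the Ascl2 window, nor in those of Olfm4, Cd44, Prom1 and Rnf43. Of all 32851 promoters, 13.8% held CTTTGA in this window, 13% held CAGCTG and 12.6% held GGAATG. Each of them stood in 1 of the 10 starts, and these matches describe the letters alone.

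Measured per transcript length, the 10 genes summed to between 155 and 477 TPM in the organoids and between 712 and 1363 TPM in the tumoroids. Lgr4 was the most abundant of them in organoid replicates 2 and 3 under both media, with 28.0% to 36.7% of the summed TPM. Olfm4 led in organoid replicate 1 under both media, with 45.5% (T-cM) and 52.7% (WT-cM). The tumoroids had a different leader in each library. Smoc2 led in tumoroid 1 with 29.3%, Rnf43 in tumoroid 2 with 24.2% and Prom1 in tumoroid 3 with 33.2%. Lgr5 never exceeded 0.149% of the sum in an organoid library and took 2.17% to 2.70% of it in the tumoroids.

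**Figure D1:**
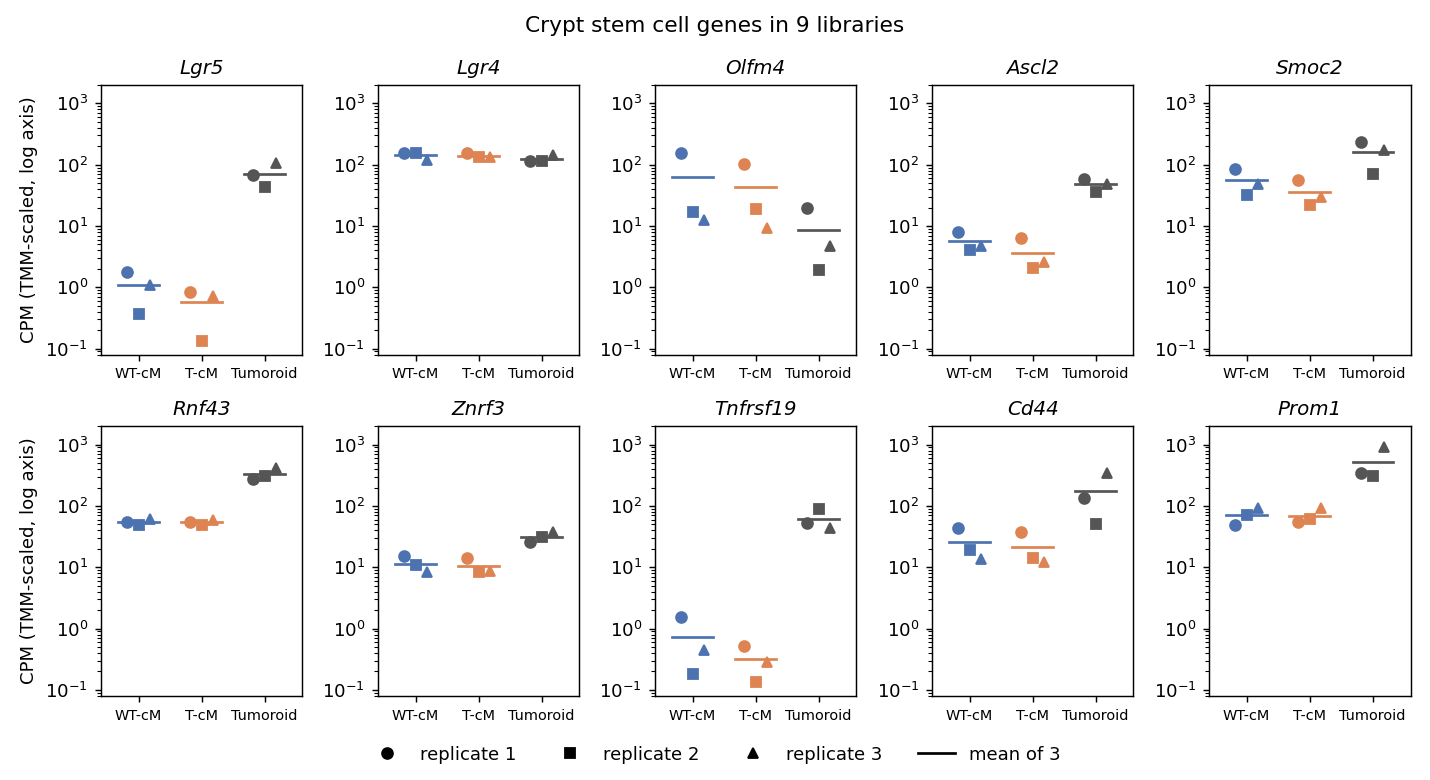
Level of each of the 10 genes in every library, as TMM-scaled CPM on a log axis; points are libraries, with the replicate number as the symbol, and lines are means of 3. Lgr5 and Tnfrsf19 lie at or below 1.76 CPM in all 6 organoid libraries and above 42 CPM in all 3 tumoroids, whereas Lgr4 stays between 113 and 157 CPM throughout.

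Of the R-spondin receptors, Lgr5 is the marker that gave crypt base columnar cells their best-known name. It was read at 1.76, 0.365 and 1.11 CPM in WT-cM organoids 1 to 3, at 0.846, 0.136 and 0.733 CPM in T-cM organoids, and at 66.7, 42.6 and 106 CPM in tumoroids. The organoid values rest on 32, 6 and 25 reads under WT-cM and on 16, 2 and 13 under T-cM, of which the 2 reads lie under the 3-count floor. Thus Lgr5 was barely read in any organoid library, and no tumoroid came near that range. Lgr4, the more widely expressed receptor, stood at 157, 156 and 121 CPM (WT-cM), 154, 136 and 132 CPM (T-cM) and 114, 113 and 141 CPM (tumoroids). Its ranges overlapped in all 3 groups, with a mean of 143 ± 15.1 CPM (SD over 6 libraries paired by replicate number) in organoids and 123 ± 15.9 CPM (SD, n = 3) in tumoroids.

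Rnf43 is a ligase that R-spondin signalling restrains and that Wnt signalling in turn induces. Within the organoids it was the steadiest of the genes that separated the tissues. It measured 55.2, 48.7 and 61.3 CPM under WT-cM, 55.2, 49.4 and 58.1 CPM under T-cM, and 272, 303 and 409 CPM in tumoroids. The 6 organoid values differed by at most 1.26-fold, and the lowest tumoroid lay far above them. Its homologue Znrf3 measured 15.1, 10.8 and 8.28 CPM (WT-cM), 14.4, 8.35 and 8.79 CPM (T-cM) and 26, 31.0 and 37.4 CPM (tumoroids), again without overlap between tissues. Per transcript length the ligases changed rank against the receptors. The TPM of Rnf43 plus Znrf3 came to between 0.332 and 0.502 of the TPM of Lgr4 plus Lgr5 in the organoids and to 1.73, 2.14 and 1.95 of it in tumoroids 1 to 3.

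**Figure D2:**
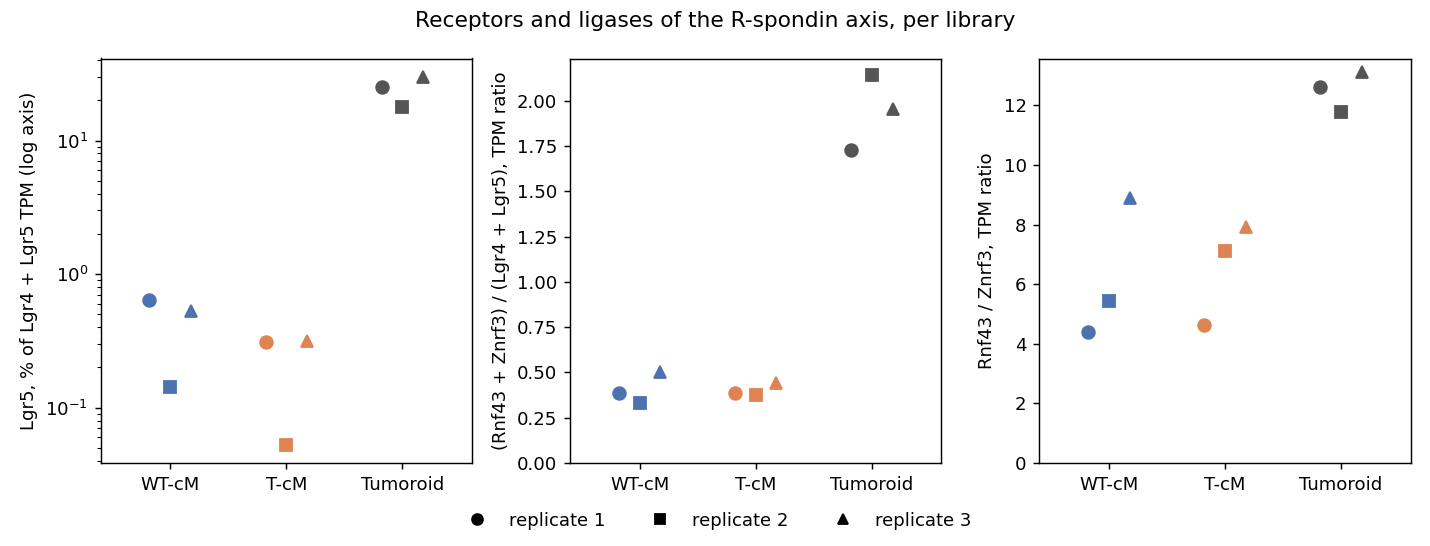
Ratios of deposited TPM per library: Lgr5 as a percentage of Lgr4 plus Lgr5 (left, log axis), ligases Rnf43 plus Znrf3 over receptors Lgr4 plus Lgr5 (middle), and Rnf43 over Znrf3 (right). Lgr5 made up at most 0.638% of receptor TPM in organoids and between 17.7% and 30.0% in tumoroids, and Rnf43 exceeded Znrf3 by 4.40 to 8.90 times in organoids and by 11.8 to 13.1 times in tumoroids.

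Ascl2 encodes the transcription factor that maintains crypt base identity. Its level was 8.08, 4.07 and 4.74 CPM in WT-cM organoids, 6.29, 2.10 and 2.59 CPM in T-cM organoids and 59.3, 35.9 and 48.2 CPM in tumoroids. Tumoroids were therefore clear of all organoids, and within each organoid pair the T-cM library was the lower.

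Smoc2 and Olfm4 code for secreted proteins of the crypt base. Smoc2, a matricellular protein, was at 85.6, 32.5 and 47.7 CPM (WT-cM), 57.4, 21.6 and 29.4 CPM (T-cM) and 232, 71.2 and 173 CPM (tumoroids). Tumoroid 2 fell below WT-cM organoid 1, so the tissues overlapped on the CPM scale, although not in TPM, where tumoroid 2 (93.9 TPM) exceeded that organoid (79.4 TPM). Olfm4, the glycoprotein olfactomedin 4, was the odd one out. It was at 157, 16.8 and 12.3 CPM (WT-cM), 101, 19.1 and 9.36 CPM (T-cM) and only 19.4, 1.90 and 4.74 CPM in the tumoroids. Replicate 1 carried most of the organoid signal, and the tumoroid range overlapped that of the organoids.

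Tnfrsf19 (TROY), Cd44 and Prom1 (CD133) encode surface proteins, a TNF receptor family member, a hyaluronan receptor and a pentaspan membrane protein. Tnfrsf19 was at 1.54, 0.182 and 0.443 CPM (WT-cM), 0.529, 0.136 and 0.282 CPM (T-cM) and 52.1, 90.7 and 42.9 CPM (tumoroids). As with Lgr5, its organoid values rested on few reads, from 2 to 28 per library. Cd44 was at 43.8, 19.2 and 13.5 CPM (WT-cM), 37.9, 14 and 12.2 CPM (T-cM) and 137, 50.1 and 340 CPM (tumoroids). The tumoroids did not overlap the organoids, but spread 6.80-fold among themselves. Prom1 was at 48.9, 70.3 and 93.9 CPM (WT-cM), 53.9, 61.9 and 92.7 CPM (T-cM) and 340, 304 and 909 CPM (tumoroids). Here the organoid media gave nearly the same values within each pair, and every tumoroid lay above them.

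To ask how crypt stem cell genes of normal organoids differ between the media, T-cM and WT-cM were compared with the replicate number as a block. By the study's methods WT-cM was made from medium with R-spondin, whereas tumoroids were grown without it. R-spondin supply may thus differ between the media besides what tumoroids secrete, and the parts were not tested. Smoc2 and Ascl2 were lower under T-cM, and no member passed as higher, against 4.57% of all tested genes. Smoc2 fell by 0.62 on the log2 scale (SE 0.09, adjusted p = 5.0e-05, edgeR quasi-likelihood test), with T-cM to WT-cM ratios of 0.670, 0.665 and 0.617 in pairs 1 to 3. Ascl2 fell by 0.68 (SE 0.19, adjusted p = 0.020), with ratios of 0.779, 0.516 and 0.547. These were 2 of 10 genes, against 5.32% of all tested genes that passed in that direction, and neither change reached a log2 value of 1.

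The other 8 genes did not pass. Lgr5 was estimated at -0.90 (SE 0.40, adjusted p = 0.18) and Tnfrsf19 at -1.11 (SE 0.54, adjusted p = 0.23), both at read numbers that leave wide errors. Olfm4 was estimated at -0.33 (SE 0.12, adjusted p = 0.082), lower under T-cM in pairs 1 and 3 and higher in pair 2. Its estimate was -0.064 without replicate 1 and -0.54 without replicate 2. Cd44 was estimated at -0.26 (SE 0.11, adjusted p = 0.14). For the R-spondin receptor Lgr4 the 95% interval ran from -0.20 to 0.13, for Rnf43 from -0.20 to 0.16, for Prom1 from -0.20 to 0.16 and for Znrf3 from -0.39 to 0.17, so changes in these 4 beyond those bounds were not seen. All 10 estimates were below 0, as were 51.0% of all tested genes, and the median was -0.30 against -0.01 over all genes. Lgr5, Ascl2, Smoc2, Tnfrsf19 and Cd44 were lower under T-cM in 3 of 3 pairs, a pattern shown by 22.3% of all genes. In none of the 10 did the T-cM and WT-cM ranges separate (background 5.28% lower and 5.12% higher).

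**Figure D3:**
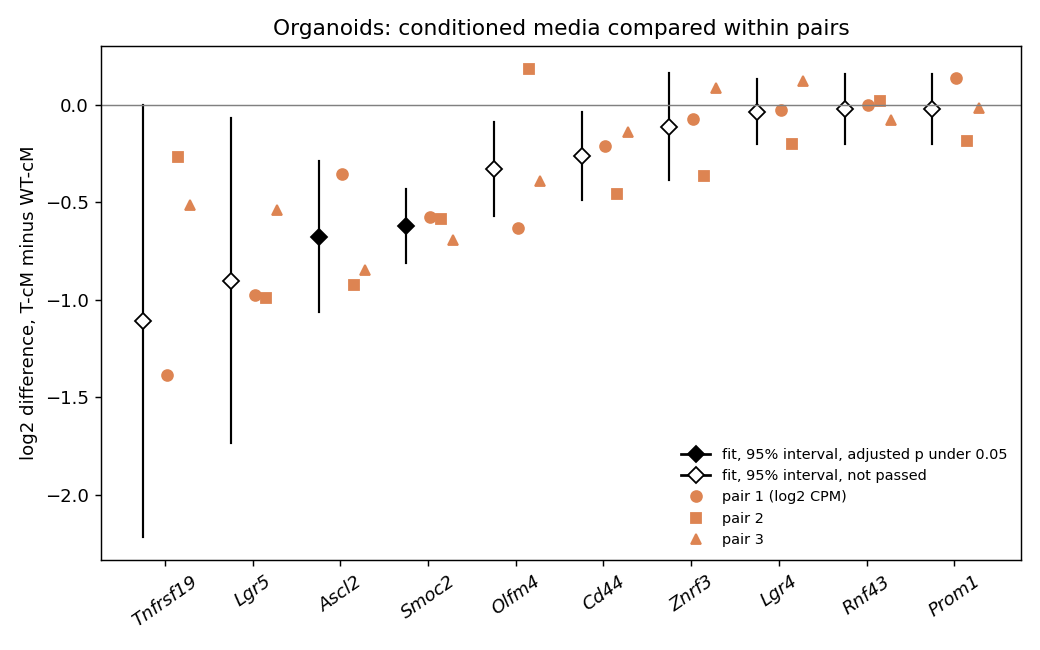
Difference between T-cM and WT-cM organoids on the log2 scale for each gene; diamonds with bars are the fitted value and its 95% interval (filled where the adjusted p was under 0.05), and coloured symbols are the 3 pairs in log2 CPM. The 3 pairs of Smoc2 lie close together, whereas those of Tnfrsf19, Olfm4, Ascl2 and Lgr5 scatter more widely.

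The call for Ascl2 depended on pairs 2 and 3 and on the tool, while its estimate moved less. Its estimate stayed at -0.58 without replicate 2 (adjusted p = 0.30) and at -0.59 without replicate 3 (adjusted p = 0.23), whereas without replicate 1 it was -0.88 (adjusted p = 0.0036). With all pairs it was -0.63 in limma voom (adjusted p = 0.075), -0.70 in DESeq2 (0.17) and -0.64 in the edgeR 4 form (0.062), none of which called it. Without the replicate block no member passed in edgeR, and none had an unadjusted p under 0.05.

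Markers of other cells moved in the same comparison. The share of all tested genes that passed was 5.32% lower and 4.57% higher. Of 10 cycling genes, 7 were lower under T-cM and none higher, with Cdk1, the mitotic kinase, at 54.9 ± 29.4 CPM against 73.6 ± 25.7 CPM (SD, n = 3; log2 -0.48, SE 0.10, adjusted p = 0.0014). Of 10 Paneth cell genes, 5 were lower, led by the lectin-like Mptx2 (log2 -0.83, SE 0.12, adjusted p = 2.7e-05). Enterocyte genes went both ways, with 4 of 10 lower and 1, the brush border phosphatase Alpi, higher (log2 0.74, SE 0.08, adjusted p = 3.2e-07). The cycling count was 1 with limma voom, 4 without replicate 3 and 0 without replicate 2, where 6 had an unadjusted p under 0.05 in edgeR. The Paneth count was 1 without replicate 2 and 2 without replicate 3, and the enterocyte count of 5 in either direction was 3 with limma voom or without replicate 2. The part of these lists in the changes of Smoc2 and Ascl2 was not tested.

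Other crypt base genes, listed apart from the 10, included 17 that were tested, of which 5 were lower under T-cM and 1 higher, with a median of -0.19. Without replicate 2 it was 2 genes, and without replicate 3 it was 3. The lower ones were led by Aqp4, a water channel (7.23 ± 5.24 against 19.1 ± 7.15 CPM; log2 -1.5, SE 0.15, adjusted p = 1.9e-07). Igfbp4, an IGF-binding protein (log2 -0.88, SE 0.14, adjusted p = 8.3e-05), and Cdca7, a MYC-responsive cell division gene (log2 -0.62, SE 0.10, adjusted p = 2.0e-04), followed. Thus the estimate for Aqp4 was larger than those for Smoc2 and Ascl2. On the R-spondin and Wnt receptor side, 9 of 13 listed genes were tested, and the Wnt signal transducer Dvl2 alone passed, higher under T-cM (log2 0.41, SE 0.12, adjusted p = 0.030). The list had no call with limma voom or DESeq2, where 2 genes had an unadjusted p under 0.05, nor in edgeR without replicate 2 or 3, where 1 and 2 had, and it had 4 calls without replicate 1. The ligand genes Rspo1 and Rspo2 had no read in any library. Among 11 genes of reserve or injury-responsive stem cells, Clu, which marks revival stem cells, was the only one to pass (2 genes passed without replicate 1 and 3 without the TPM filter), at 16 ± 12.8 against 9.57 ± 7.15 CPM (log2 0.72, SE 0.13, adjusted p = 5.1e-04).

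The second question was how tumoroids stand against normal organoids. Tumoroids exceeded WT-cM organoids in 8 of the 10, against 23.4% of all tested genes that passed as higher. Each of the 8 did so by a log2 value above 1, as did 18.2% of all genes. The largest differences were those of Tnfrsf19 (log2 6.41, SE 0.67, adjusted p = 7.5e-05) and Lgr5 (log2 6.03, SE 0.63, adjusted p = 7.6e-05). Both rest on few organoid reads, and their size moved with the setting, from 5.04 on log2(TPM + 1) to 7.53 without WT-cM replicate 1 for Tnfrsf19 and from 4.26 on log2(TPM + 1) to 6.53 without that replicate for Lgr5. Both passed in each of these. Ascl2 followed at 3.08 (SE 0.44, adjusted p = 4.6e-04), and then Prom1 at 2.87, Cd44 at 2.79, Rnf43 at 2.57, Smoc2 at 1.52 and Znrf3 at 1.47. Rnf43 had the smallest p of the 10, with an SE of 0.19 (adjusted p = 1.1e-05).

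Olfm4 and Lgr4 did not pass. Olfm4 was estimated at -2.85 (SE 1.26, 95% interval -5.68 to -0.02, adjusted p = 0.098), and its size depended on single libraries. Without WT-cM replicate 1 it was -0.77 (adjusted p = 0.60), and over all alternatives it ran from -4.22 to -0.77. Against T-cM it was -0.72 without T-cM replicate 1 (adjusted p = 0.65). With a replicate block added Olfm4 passed as lower, at -2.44 against WT-cM (adjusted p = 0.0023) and -2.17 against T-cM (adjusted p = 0.0038), although tumoroid and organoid numbers share no mouse. Lgr4 was estimated at -0.23 (SE 0.16, adjusted p = 0.26). Its sign depended on the scale, since on log2(TPM + 1) it was 0.30. The median over all genes also moved with the scaling, from 0.15 with TMM factors to 0.25 with upper-quartile factors and 0.52 on the TPM scale. Relative to that median Lgr4 was lower in each case, at -0.38, -0.38 and -0.22. The directions of the other 9 genes held under every scaling.

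The same 8 genes passed against T-cM organoids, a comparison that uses the same tumoroid libraries, where 25.3% of all genes passed as higher. Tnfrsf19 stood at 7.54 (SE 0.72), Lgr5 at 6.91 (SE 0.67), Ascl2 at 3.70 (SE 0.46), Cd44 at 3.04 (SE 0.75) and Smoc2 at 2.13 (SE 0.52). Rnf43 (2.6, SE 0.19), Prom1 (2.90, SE 0.46) and Znrf3 (1.58, SE 0.30) were close to their values against WT-cM. Olfm4 was estimated at -2.33 (adjusted p = 0.16) and Lgr4 at -0.19 (adjusted p = 0.35). Against the mean of both organoid groups 8 passed (background 29.6%), and Rnf43 held rank 99 of 16208 by p. That comparison counts the 6 organoid libraries as separate, although same-numbered ones were taken to share a mouse, so its errors may be too small.

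**Figure D4:**
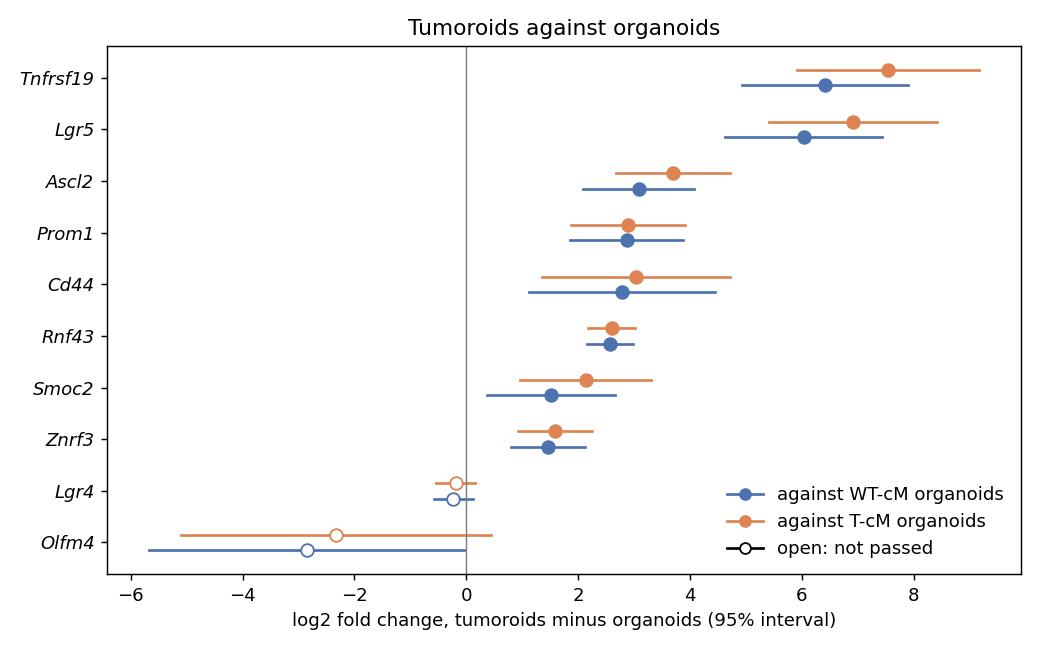
Log2 fold change of each gene in tumoroids against WT-cM and against T-cM organoids, with 95% intervals; filled points had an adjusted p under 0.05. Tnfrsf19 and Lgr5 stand above 6 and the intervals of Rnf43 are the narrowest among the higher genes, while Lgr4 and Olfm4 did not pass.

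Because Lgr5 and Tnfrsf19 entered the test through their tumoroid levels alone, the counts were also read without them: 6 of the other 8 genes were higher, against WT-cM and against T-cM organoids alike. The shares of all genes, 23.4% and 25.3%, still include genes that entered through tumoroids alone. In CPM, 7 of 10 genes had all 3 tumoroids above all 6 organoids (background 25.6%), the exceptions being Smoc2, Lgr4 and Olfm4. Lgr5 and Tnfrsf19 are among the 7, where their entry through tumoroid levels favours such a separation, and the background too holds genes of that kind. The call of Smoc2 against WT-cM (adjusted p = 0.037) was lost without WT-cM replicate 2 (0.13) or 3 (0.11) and without tumoroid 1 (0.12) or 3 (0.065). That of Cd44 (adjusted p = 0.013) was lost without WT-cM replicate 2 (0.057) or 3 (0.053). Against T-cM, Cd44 was lost without organoid replicate 2 in both media (0.063) and Smoc2 without replicate 3 in both media (0.059).

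The tumoroids themselves were not alike. Tumoroid 2 was the lowest of the 3 for 7 of 10 genes, compared with 33.3% of all tested genes, and tumoroid 3 the highest for 6, compared with 36.1%. Tnfrsf19 ran against this order with its highest level in tumoroid 2. Cd44 in tumoroid 3 was 6.80 times its level in tumoroid 2, and Olfm4 in tumoroid 1 was 10.2 times that in tumoroid 2, whereas Lgr4, Znrf3 and Rnf43 varied by 1.25, 1.44 and 1.5 times. Receptors and ligases of the R-spondin axis other than Lgr5 thus had the narrowest spread.

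The organoids differed by replicate number in a similar way. The number may stand for a round of culture as well as for a mouse, and these cannot be told apart. Both libraries of replicate 1 were above all 4 libraries of replicates 2 and 3 for Olfm4, Ascl2, Smoc2, Znrf3, Tnfrsf19 and Cd44, 6 of 10 genes where 20.4% of all genes did so, and below all 4 for Prom1 (16.6% of all genes). Its mean was 8.98 times that of the others in CPM for Olfm4, 3.97 times for Tnfrsf19, 2.78 times for Cd44, 2.18 times for Smoc2 and 2.13 times for Ascl2. The cycling genes summed to 1226 and 1429 CPM in replicate 1 under T-cM and WT-cM and to between 605 and 858 CPM in the other 4 organoid libraries. Enterocyte genes were at their lowest sums there. Whether these lists have a part in the difference was not tested.

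Beyond the 10 genes, 11 of 17 tested crypt base genes were higher in tumoroids than in WT-cM organoids and none lower, with a median of 1.97, against 23.4% of all tested genes higher and 18.5% lower. Of the 17, 3 reached 1 TPM in tumoroids alone, and 8 of the other 14 were higher with a median of 1.62. The secreted Wnt inhibitor Notum was at 68.0, 56.6 and 106 CPM in tumoroids and at or below 0.753 CPM in every organoid library, the same pattern of near absence as Lgr5 and Tnfrsf19. Nkd1, another feedback inhibitor of Wnt signalling, was at 24.3, 30.6 and 11.7 CPM against at most 0.275 CPM. The cyclin-dependent kinase gene Cdk6 (log2 2.81, SE 0.24, adjusted p = 2.8e-05) and the sterol acyltransferase gene Soat1 (log2 2.05, SE 0.18, adjusted p = 3.3e-05) were also higher.

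In the R-spondin and Wnt receptor list 5 of 9 tested genes were higher and 1 lower, the latter below the share of all genes. The R-spondin co-receptor syndecan Sdc4 was at 252 ± 37.2 CPM in tumoroids against 89.3 ± 7.0 CPM in WT-cM organoids (log2 1.5, SE 0.15, adjusted p = 5.5e-05). The lower one was the Wnt receptor Fzd5, at 35.6 ± 4.68 against 173 ± 9.20 CPM (log2 -2.28, SE 0.15, adjusted p = 9.8e-06). Reserve and injury-responsive stem cell genes also differed, with 6 of 11 higher, or 5 of 10 without the gene that reached 1 TPM in tumoroids alone, while the 2 lower ones were near the share of all genes. Clu was at 1423 CPM on average in tumoroids against 9.57 CPM, and Ly6a (Sca-1), a marker of foetal-like and regenerating epithelium, at 614 against 3.91 CPM. Prox1 was at 57.6, 90.2 and 120 CPM in tumoroids and at or below 1.32 CPM in organoids.

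All 10 enterocyte genes were lower than in WT-cM organoids, where 18.5% of all tested genes were, and their summed level was between 472 and 966 CPM in tumoroids against 25656 to 51312 CPM in organoids. The sucrase gene Sis had a log2 difference of -8.95 (SE 0.56, adjusted p = 6.5e-06). Among goblet, enteroendocrine and tuft genes 5 of 10 were lower and 1 higher, and among Paneth genes 4 were lower and 2 higher. None of the 10 cycling genes passed against WT-cM in edgeR, limma voom or DESeq2, where 0, 2 and 1 had an unadjusted p under 0.05. On deposited TPM, or without WT-cM replicate 1, 2 passed. The smallest p among them was that of Mcm6 (log2 0.81, SE 0.37, adjusted p = 0.11). The part of these differences in the levels of the 10 stem cell genes was not tested.

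**Figure D5:**
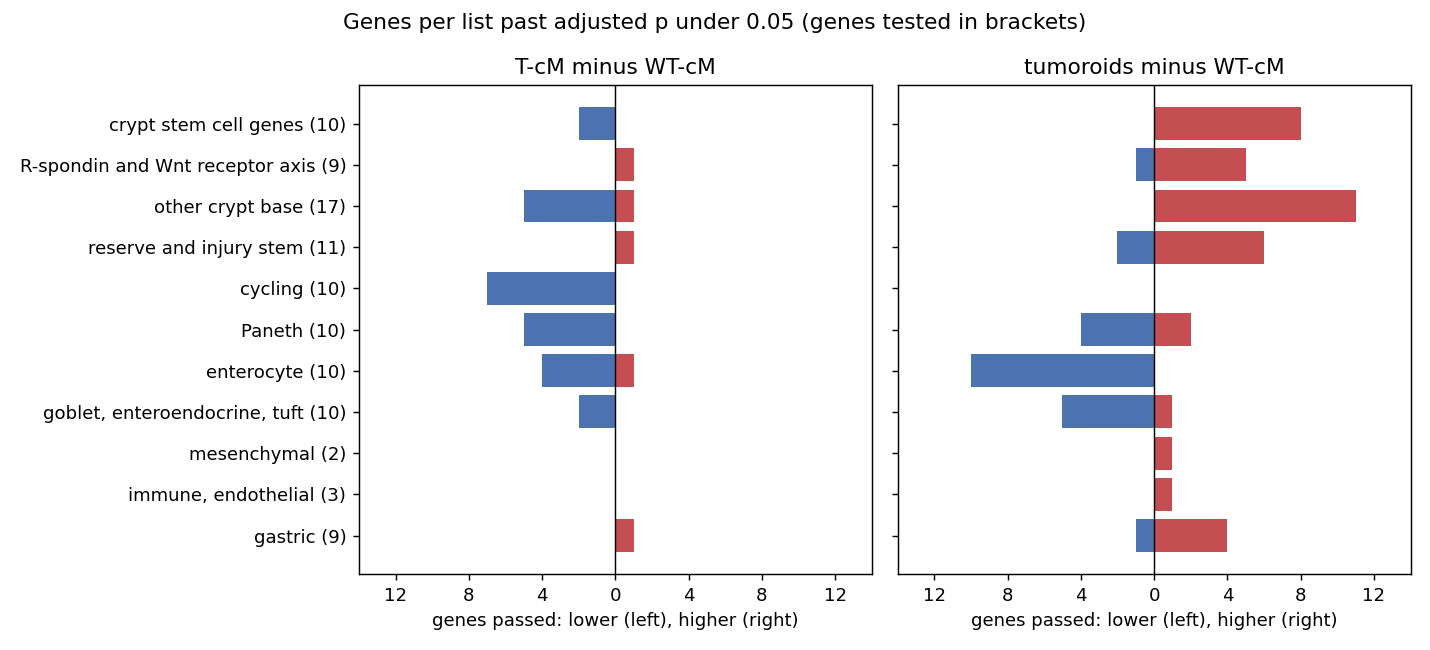
Number of genes per list with an adjusted p under 0.05, lower (left of 0) and higher (right of 0), in T-cM against WT-cM organoids (left) and in tumoroids against WT-cM organoids (right), with the genes tested in brackets. In organoids 2 stem cell genes and 7 cycling genes were lower under T-cM; in tumoroids 8 stem cell genes were higher and 10 enterocyte genes lower.

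Markers of cells outside the intestinal epithelium were low in organoids, and some were higher in tumoroids. Of 10 mesenchymal markers 2 were tested, Col3a1 and Lum had no read in any library, and the list summed to 0.678 to 1.64 CPM in organoids and to 4.67, 2.53 and 48.6 CPM in tumoroids 1 to 3. Acta2, a smooth muscle actin, passed as higher than in WT-cM organoids (log2 7.81, SE 1.58, adjusted p = 0.0033), at 4.03, 1.86 and 46.0 CPM in tumoroids and at most 0.846 CPM in organoids. The other tested one, Pdgfrb, did not pass and was estimated as lower (log2 -0.39, SE 0.88, adjusted p = 0.76 in the same edgeR test). Of 10 immune and endothelial markers 3 were tested, Cd3e, Emcn and Kdr had no read, and the list summed to at most 2.85 CPM in organoids and 22.8 CPM in tumoroids. Cd68, a macrophage marker, passed as higher (log2 3.75, SE 0.66, adjusted p = 0.0015), at 4.58, 5.58 and 20.5 CPM in tumoroids and at most 0.974 CPM in organoids. In the same edgeR test Lyz2 was estimated as lower (log2 -2.53, SE 1.17, adjusted p = 0.11) and Cdh5 as higher (log2 6.78, SE 2.64, adjusted p = 0.092), and neither passed. Of 9 tested gastric genes 7 reached 1 TPM in tumoroids alone, among them the 4 that passed as higher (background 23.4%), and of the other 2, 1 was lower. Gastric genes summed to 31.0, 30.5 and 51.5 CPM in tumoroids and to at most 4.89 CPM in organoids, with the stomach mucin Muc5ac at 17.6, 1.93 and 9.72 CPM in tumoroids and without a read in organoids. Without tumoroid 3, where Acta2 and Cd68 were highest, 7 of the 10 stem cell genes passed as higher than in WT-cM organoids and 8 as higher than in T-cM organoids. The part of these markers in the tumoroid levels of the stem cell genes was not tested.

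Finally, genes were ranked by Pearson's r with Lgr5 on log2 CPM over the 9 libraries, among 12630 genes with a mean of at least 1 CPM. Among the most alike were Ptprs, Cep131, Trim44 and Sh3bp4, with r from 0.991 to 0.999. Ptprs, a receptor tyrosine phosphatase gene, was at 12.9, 5.29 and 9.34 CPM (WT-cM), 8.09, 3.73 and 7.61 CPM (T-cM) and 90.1, 83.8 and 155 CPM (tumoroids), so it shared with Lgr5 the lowest value in replicate 2 of each group. Of the other stem cell genes Tnfrsf19 (r = 0.979, rank 125), Ascl2 (r = 0.978, rank 127) and Rnf43 (r = 0.976, rank 157) came closest, and Olfm4 (r = -0.48) and Lgr4 (r = -0.49) were inversely related. The 9 points fall into 2 tissues, which differ in origin, genotype and cM exposure, and the organoids further divide by medium. Within the 6 organoid libraries, after the mean of each pair was subtracted, Drg2, Thap2, Rbx1, Iqgap3 and Rassf4 were the most alike (r of 1.00 after rounding, 11824 genes), over only 3 independent differences and with Lgr5 at 2 to 32 reads. On that measure Smoc2 (r = 0.945, rank 580), Cd44 (r = 0.940, rank 632) and Ascl2 (r = 0.884, rank 1298) stood nearest to Lgr5 among the 8 other stem cell genes that met the level limit and Prom1 farthest (r = 0.155). Tnfrsf19 was under that limit in the organoids.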

How the data were processed

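RNA was measured in 9 polyA-selected, strand-specific, paired-end libraries. The authors aligned reads to mm10 with STAR and deposited raw counts per gene of the Gencode vM13 annotation and, as a separate table, TPM values. The counting tool and its strand setting are not given in the sources used here. Deposited counts were used for all tests and deposited TPM for the filter (at least 1 TPM in at least 1 library), for levels between genes and for an alternative test on log2(TPM + 1).

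Counts were tested with edgeR 4.0.16 (R 4.3.3; quasi-likelihood F test, TMM factors over the 9 libraries, Benjamini-Hochberg adjustment over 16208 genes; passed at adjusted p under 0.05). The organoid media were compared over 6 libraries, blocked by replicate. Tumoroids were fitted over 9 libraries without that block. Deviations of same-numbered organoid libraries from their group means correlated over genes (r = 0.546, 0.338 and 0.547), so the numbers were taken to pair the mice. limma 3.58.1 and DESeq2 1.42.0 were alternatives, beside other factors, filters and libraries left out. The test was also run on simulated counts, which held no replicate effect and so do not bear on the block. No columns were left unused. In the organoid comparison p-values measure the spread of differences within pairs. In the tumoroid comparisons they measure the spread between libraries within groups, where both libraries of an organoid pair count as separate.

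The 10 genes and the gene lists were chosen with earlier results of these data known. Named were all 10 genes, up to 3 genes of each other list and comparison with the smallest p, and the 5 genes most like Lgr5, of which 1 is not reported here. Intervals are 95% and cover the same spread as the p-values of their comparison.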

Additional observations from a re-analysis of the deposited data

How the results depend on the processing

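In the organoid comparison the number of stem cell genes that passed, 2 in edgeR with the replicate block, was 1 with limma voom, DESeq2 and the edgeR 4 quasi-likelihood form and 0 on deposited TPM with limma, where 2 had an unadjusted p under 0.05. Leaving out a pair gave 1 to 2. Without the replicate block it was 0, and 0 of all 16208 genes passed (900 had an unadjusted p under 0.05), against 1604 with it. Over all genes 392 passed with limma voom, 783 with DESeq2 and 997 with the edgeR 4 form, and without replicate 1, 2 or 3 it was 2880, 156 and 470. Over the other lists 28 genes passed, 12 with limma voom and 0 on TPM or without the replicate block, and 7 to 34 when a pair was left out. The cause of these differences was not tested.

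Estimates changed sign as follows. Between the organoid media on TPM, Rnf43 was at 0.0028 and Prom1 at 0.0028. With a pair left out, Lgr4 ran from -0.11 to 0.048, Rnf43 from -0.041 to 0.0093, Znrf3 from -0.21 to 0.0031 and Prom1 from -0.073 to 0.059. Lgr4 in tumoroids on TPM was at 0.30 against WT-cM, 0.31 against T-cM and 0.30 against their mean.

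Against tumoroids the 8 higher genes were 6 to 8 (WT-cM) and 7 to 8 (T-cM) over libraries left out, and 8 against the organoid mean; settings that left out an organoid replicate in both media were added after seeing the data. With a replicate block added Olfm4 passed as lower (log2 -2.44 against WT-cM, -2.17 against T-cM and -2.30 against their mean), which made 9. DESeq2 called it too against the organoid mean (-2.60, adjusted p = 0.041), as did edgeR without the TPM filter between the media (-0.33, adjusted p = 0.023). Tumoroid and organoid numbers share no mouse. For Lgr5 and Tnfrsf19 in organoids, 2 to 32 reads per library limit what can be seen.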
